A study of Mus musculus with 23 samples.

Results

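Protein folding genes of the endoplasmic reticulum, the compartment where secreted and membrane proteins are made, were followed across sorted mouse colon tumour cells. They were chosen by gene symbol (Hspa5, Xbp1, Herpud1, Dnajb9, Pdia4, Sdf2l1, Creld2, Hyou1, Calr and Hsp90b1), and each had 1 row, giving 10 of the 54354 genes in the table. All libraries carried the Basp1-GFP genotype and came from colon. According to the series' design, organoids named Basp1-eGFP-DTR; AKP-tdT were placed orthotopically in the colon of mice, and the primary tumours that grew were digested and sorted by flow cytometry. Sorting gave 11 GFP-positive libraries (cells expressing the reporter) and 12 GFP-negative libraries (cells without it). The organoid background, the tdT label and the diphtheria toxin receptor were therefore shared by both groups, while the host cells of a tumour carry no reporter and could enter the GFP-negative sort. The labels give no diet, age, strain or clone number, although the series title carries the letters HFD, and the extraction protocol names organoids rather than tumours as the source of RNA.

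When unfolded proteins accumulate in the endoplasmic reticulum, the membrane sensors IRE1, PERK and ATF6 start the unfolded protein response. IRE1 splices the Xbp1 mRNA, which then encodes an active transcription factor, and XBP1 and cleaved ATF6 raise the chaperones, oxidoreductases and degradation factors listed here. In the intestine this response is best known from secretory cells such as goblet and Paneth cells, which make large amounts of mucin and antimicrobial protein. Gene-level counts do not separate spliced from unspliced Xbp1, so only its total mRNA was measured.

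The sequence that many of these promoters share is the ER stress response element (ERSE), written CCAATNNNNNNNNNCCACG. It was searched on both strands in the RefSeq promoters of the mouse build GRCm38.p6, from 250 bases before to 50 bases after each start, and 9 of the 10 genes had such a promoter. The 150 bases before the start of Hspa5 (chr2:34771940-34772089, plus strand) and the windows around the matches in Calr (chr8:84847060-84847108, minus strand), Hsp90b1 (chr10:86705623-86705671 and chr10:86705518-86705566, minus strand) and Creld2 (chr15:88819505-88819553, plus strand) are shown because they hold the exact element. Herpud1 (chr8:94386362-94386402, plus strand) is shown for a related element, ERSE-II, written ATTGGNCCACG. Starts are those of RefSeq and can differ from the GENCODE gene bounds given further on, and for Hspa5, Calr and Hsp90b1 they lie inside those bounds. Each sequence runs 5′ to 3′ on the strand of its gene, and capitals mark the fixed letters of the element, which appear as their reverse complement where the element lies on the other strand.
Hspa5: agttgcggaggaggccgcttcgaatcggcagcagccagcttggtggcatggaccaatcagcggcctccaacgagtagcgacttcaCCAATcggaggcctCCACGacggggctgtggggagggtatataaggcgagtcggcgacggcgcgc
Calr: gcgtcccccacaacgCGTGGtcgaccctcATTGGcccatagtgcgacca
Hsp90b1, far site: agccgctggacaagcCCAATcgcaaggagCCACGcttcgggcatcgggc
Hsp90b1, near site: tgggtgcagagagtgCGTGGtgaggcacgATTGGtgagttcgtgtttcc
Creld2: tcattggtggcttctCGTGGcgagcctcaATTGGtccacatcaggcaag
Herpud1: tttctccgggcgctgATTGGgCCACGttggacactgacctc

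The ERSE was found in the promoters of 4 of the 9 genes, against 39 of all 32851 promoters in the table (0.119%), where 37 genes held it. In Hspa5 its first base lay at -65 from the start, in Calr at -162, in Creld2 at -126, and in Hsp90b1 at -212 and -107. ERSE-II was found in Herpud1 at -52, against 12 of all promoters (0.0365%). A further element, the core TGACGTGG of the unfolded protein response element, was in none of the 9 promoters and in 222 of all (0.676%). The ERSE was searched because many of these promoters are known to share it, so its share among them is no test of enrichment. A match is a string of letters and was not tested as a binding site. A promoter without one says only that these letters were absent from the window searched. In a list of 70 other genes of this pathway, described below by role, 6 of the 58 with a promoter held the ERSE (Canx, Derl3, Dnajc3, Ero1b, Pdia6 and Syvn1) and Dnajb11 held ERSE-II.

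The values are expected counts, the number of reads per gene that Salmon estimated, and levels are given as CPM, each library's counts scaled to the same total. Library totals ran from 37125 to 4238877 counts in the GFP-positive group (median 1418140) and from 25458 to 2304316 in the GFP-negative group (median 144334), so GFP-positive libraries were 4.53 times deeper by geometric mean. Fewer than 100000 counts were held by 4 libraries (GFP-positive 4 and GFP-negative 4, 5 and 12), and 3 counts, the limit below which a gene listed at 0 could lie, stood for 0.708 CPM in the deepest library and 118 CPM in the shallowest. The library numbers fell into 2 runs, here library set 1 (5 GFP-positive, 6 GFP-negative) and library set 2 (6 and 6), and 9 identifiers at the start of the library names occurred in both groups as written. A further one, making 10, was formed by joining GFP-negative 4 and 5 to GFP-positive 4, whose name carries both of their identifiers; the labels do not state that they belong together. Basp1 itself had 13.3 to 108 CPM in GFP-positive libraries (median 51.3) and 0 to 83.8 CPM in GFP-negative libraries (median 27.7). Epithelial markers were present in every library, with a summed level of 3299 to 9014 CPM over 8 genes in GFP-positive and 2590 to 6839 CPM in GFP-negative libraries. GFP-positive 3 stood apart with 31826 CPM over 10 macrophage markers, against 131 to 1114 CPM in the other GFP-positive libraries.

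Together the 10 genes took 1401 to 2774 CPM in GFP-positive libraries (mean 2160 ± 394, SD, n = 11) and 1230 to 3119 CPM in GFP-negative libraries (mean 2307 ± 519, SD, n = 12). To order their levels, CPM was divided by the merged exon length of each gene in kilobases, over the 19 libraries with at least 100000 counts. Hspa5 led with a median of 177 CPM per kb, followed by Hsp90b1 (160), Calr (134) and Pdia4 (114). Pdia4 stood above the next gene, Herpud1 (31.4 CPM per kb), in 19 of 19 libraries. Creld2 (23.2), Xbp1 (16.1) and Dnajb9 (10.6) came next, and Sdf2l1 (4.32) and Hyou1 (1.92) were last. Neighbours elsewhere in this order overlapped between libraries: Hspa5 exceeded Hsp90b1 in 14 of 19 libraries and Dnajb9 exceeded Sdf2l1 in 11 of 19. The 4 abundant genes also varied least, with a coefficient of variation (SD over mean) of 0.20 for Hspa5, 0.23 for Pdia4, 0.24 for Calr and 0.26 for Hsp90b1, against 0.95 for Hyou1 and 1.41 for Sdf2l1.

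**Figure D1:**
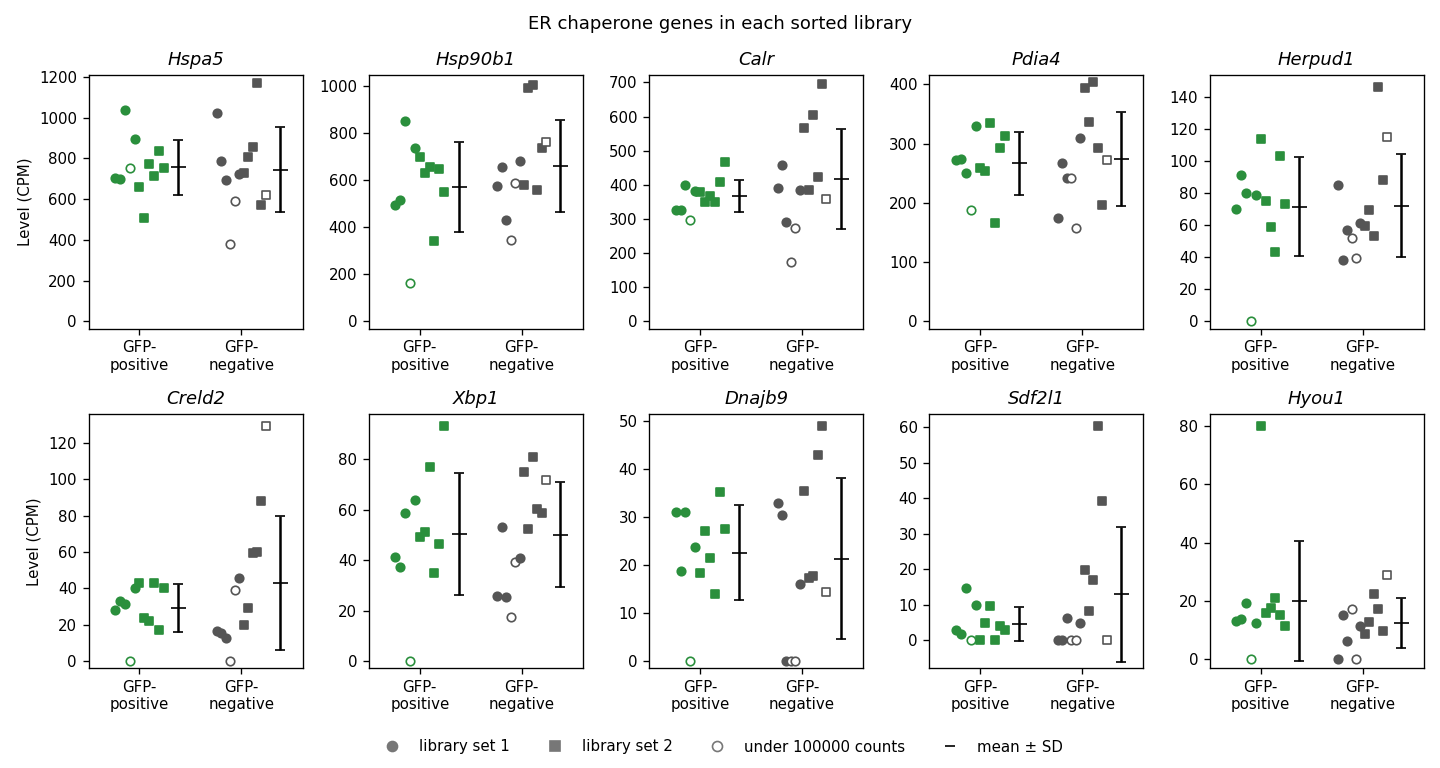
Level of each gene in CPM (vertical axis, linear, a separate scale per gene) in GFP-positive libraries (green, left) and GFP-negative libraries (grey, right). Circles are library set 1, squares library set 2, open symbols libraries under 100000 counts, and bars the mean ± SD; the groups overlap for every gene.

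The difference between GFP-positive and GFP-negative cells, the contrast the sort was made for, was tested for every gene with edgeR's quasi-likelihood test and Benjamini-Hochberg adjustment over all genes tested. None of the 9 chaperone genes tested passed an adjusted p of 0.05, against 1 of 6621 genes in all (0.0151%), and Sdf2l1 fell below the filter on low counts. None had an unadjusted p under 0.05 either. Over all genes 318 of 6621 did, a share near that threshold itself, so 0 of 9 is no contrast with them. DESeq2 called 24 genes and none of the 9. With the identifier as a block, Hsp90b1 had an edgeR unadjusted p of 0.0495 (log2 fold change -0.35, adjusted p = 0.999), and without GFP-positive 3 one of 0.0136 (-0.45, adjusted p = 0.360). Of the 9 fold changes, 5 were positive, and their median was 0.03 on the log2 scale, beside 58.1% positive and a median of 0.06 over all genes tested. All 9 adjusted p-values were 0.998. Because these are bulk libraries, fewer cells of a type and less RNA per cell cannot be told apart. Nothing in the labels says that libraries came from separate animals, so the p-values measure the spread between libraries, which may in part be technical.

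Gene positions are those of GENCODE M21 on mm10. Xbp1 (ENSMUSG00000020484, chr11:5520659-5525893, plus strand), the transcription factor of the set, had 0 to 93.1 CPM in GFP-positive libraries (median 49.2) and 17.3 to 81.0 CPM in GFP-negative libraries (median 52.7). The groups overlapped over almost their whole range, and the only library at 0 was the shallow GFP-positive 4. Its log2 fold change was 0.06 (SE 0.29, 95% interval -0.54 to 0.65). Within the GFP-negative libraries the mean was 66.5 ± 11.1 CPM in set 2 and 33.7 ± 13.1 CPM in set 1 (SD, n = 6 each). The ranges overlapped at their edge, with a minimum of 52.2 CPM in set 2 and a maximum of 53.3 CPM in set 1. The set 1 values rested on 118 counts, 94 of them in 1 library, and the set 2 values on 207, with 5 to 91 per library.

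Hspa5 (ENSMUSG00000026864, chr2:34771970-34777547, plus strand) encodes BiP, the HSP70 chaperone of the endoplasmic reticulum, which also holds the stress sensors inactive. It had 507 to 1037 CPM in GFP-positive libraries (median 750.3) and 381 to 1170 CPM in GFP-negative libraries (median 724). The highest GFP-positive library was GFP-positive 3, the one rich in macrophage markers. GFP-negative 10, with 6041 CPM over those markers, was higher in CPM but not on the TMM-normalised log2 scale (10.15 against 10.20). Over the 19 libraries of at least 100000 counts, Hspa5 correlated with the log2 macrophage sum at r = 0.59, the highest of the marker lists. The part of macrophages in these values was not tested. The log2 fold change of Hspa5 was 0.03 (SE 0.16, 95% interval -0.29 to 0.35), the narrowest interval of the 9 genes. Without GFP-positive 3 it was -0.05.

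Around BiP, Dnajb9 encodes a J-domain cofactor, Hyou1 a large HSP70-related chaperone that exchanges its nucleotide, and Sdf2l1 a partner of J-domain proteins that keeps clients soluble. Dnajb9 (ENSMUSG00000014905, chr12:44205559-44210326, minus strand) had 0 to 35.3 CPM in GFP-positive libraries (median 23.8) and 0 to 49.0 CPM in GFP-negative libraries (median 17.6), with a log2 fold change of 0.11 (SE 0.37). Its zeros fell in 1 GFP-positive and 3 GFP-negative libraries, among them GFP-negative 3, which is not one of the shallowest.

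Hyou1 (ENSMUSG00000032115, chr9:44379490-44392369, plus strand) had 11.3 to 79.9 CPM in the GFP-positive libraries of at least 100000 counts (median 15.6) and 0 to 22.2 CPM in the GFP-negative ones (median 11.3). A single library, GFP-positive 6, lay far above the rest, with 26 counts, and its GFP-negative partner of the same identifier had 8.50 CPM from 6 counts. Fitted over all libraries, Hyou1 differed by 0.69 on the log2 scale (SE 0.43, 95% interval -0.18 to 1.57, edgeR unadjusted p = 0.118), the highest of the 9 genes. It was 0.32 without GFP-positive 6.

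Sdf2l1 (ENSMUSG00000022769, chr16:17130138-17132383, minus strand) was the scarcest in counts, with 108 counts over all GFP-positive and 63 over all GFP-negative libraries. It was at 0 in 3 of 11 GFP-positive and 5 of 12 GFP-negative libraries. Levels ran from 0 to 14.6 CPM in GFP-positive libraries (median 2.83) and from 0 to 60.2 CPM in GFP-negative libraries (median 5.56). The 2 highest values, 60.2 and 39.2 CPM, rested on 7 and 4 counts in GFP-negative 10 and 11. On log2(CPM + 1) the groups differed by -0.45 (two-sided permutation test with 100000 resamples, p = 0.575).

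Hsp90b1 encodes GRP94, the HSP90 of the endoplasmic reticulum, and Calr encodes calreticulin, which binds calcium and holds glycoproteins until they fold. Hsp90b1 (ENSMUSG00000020048, chr10:86690209-86705509, minus strand) had 162 to 851 CPM in GFP-positive libraries (median 629) and 346 to 1005 CPM in GFP-negative libraries (median 622). Calr (ENSMUSG00000003814, chr8:84841850-84846934, minus strand) had 296 to 467 CPM in GFP-positive libraries (median 368) and 173 to 696 CPM in GFP-negative libraries (median 388). For Calr the GFP-positive values lay inside the GFP-negative range, and their SD was 47.0 CPM, against 147 CPM in GFP-negative libraries. Hsp90b1 had a log2 fold change of -0.17, with an SE of 0.20 and a 95% interval of -0.58 to 0.25, and Calr one of -0.17, with an SE of 0.18 and an interval of -0.53 to 0.19.

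The oxidoreductases were Pdia4, a disulfide isomerase, and Creld2, a secreted factor with isomerase activity. Pdia4 (ENSMUSG00000025823, chr6:47796141-47813430, minus strand) had 167 to 335 CPM in GFP-positive libraries (median 273) and 157 to 404 CPM in GFP-negative libraries (median 269.8). Creld2 (ENSMUSG00000023272, chr15:88819646-88826683, plus strand) had 0 to 43.1 CPM in GFP-positive libraries (median 31.6) and 0 to 129 CPM in GFP-negative libraries (median 34.1). Both genes overlapped between groups, and the highest Creld2 value, in GFP-negative 12, came from 9 counts. Pdia4 had a fold change of -0.06 on the log2 scale (SE 0.19, 95% interval -0.44 to 0.33) and Creld2 one of -0.36 (SE 0.36, 95% interval -1.09 to 0.36), the lowest of the 9. Leaving out 1 library at a time gave Creld2 values between -0.46 and -0.18, and it was -0.18 without GFP-negative 12, -0.25 without GFP-negative 11.

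Herpud1 (ENSMUSG00000031770, chr8:94386438-94395377, plus strand) encodes a membrane protein that helps assemble the complex for degrading misfolded proteins. It had 0 to 114 CPM in GFP-positive libraries (median 75.0) and 38.1 to 146 CPM in GFP-negative libraries (median 60.6). The zero was again GFP-positive 4, and the remaining values overlapped. Its log2 fold change was 0.09 (SE 0.27, 95% interval -0.46 to 0.64).

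**Figure D2:**
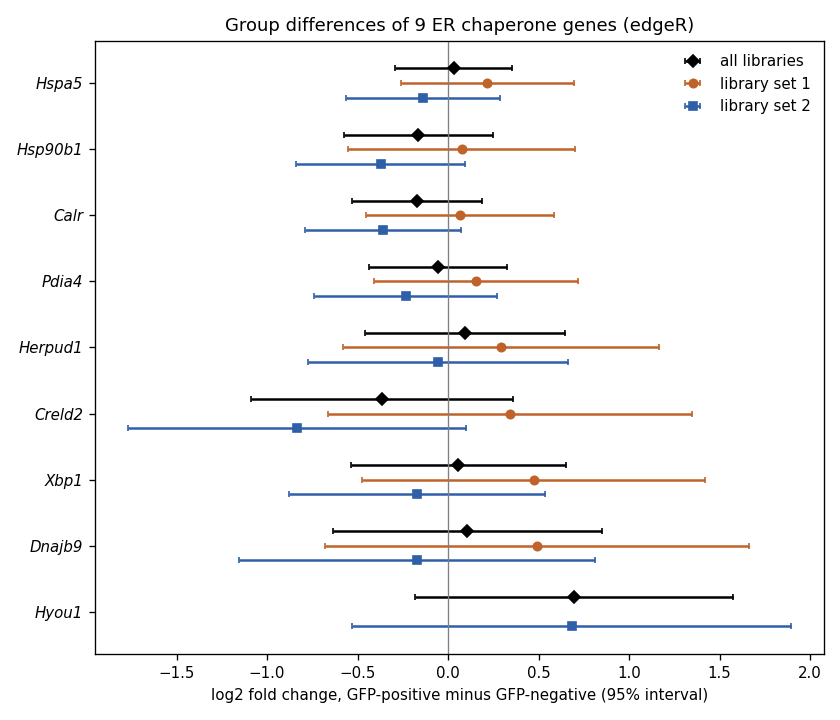
Log2 fold change of GFP-positive over GFP-negative libraries from edgeR (horizontal axis, points) with its 95% interval (bars) for the 9 genes tested, over all libraries (black diamonds), library set 1 (orange circles) and library set 2 (blue squares). Every interval includes 0; in set 1 the 8 tested genes lie above 0, and in set 2 all but Hyou1 lie below.

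Within each library set the members leaned to a different side of 0. The sets share no library with each other, but each is part of the comparison over all libraries. They do share the identifier 61-1, carried by GFP-positive 2 in set 1 and by GFP-positive 7 and GFP-negative 8 in set 2. In set 1 all 8 tested members (Hyou1 and Sdf2l1 were below the filter) had positive fold changes, with a median of 0.26 beside 0.06 over all genes. Of all genes tested in set 1, 54.6% were positive. Without GFP-positive 3, the library rich in macrophage markers, 4 of 6 tested members were positive, with a median of 0.085 beside 0.03 over all genes. None was called in set 1, and no gene of the 5256 tested was (0%), although 280 had an unadjusted p under 0.05 and DESeq2 called 6. In set 2, 1 of 9 tested members was positive, Hyou1 (0.68, but 0.079 without GFP-positive 6), and the median was -0.17 beside 0.07 over all genes. Of all genes tested in set 2, 56.1% were positive. None of the 9 was called there, against 89 of 6952 genes (1.28%). The test of the difference itself, the interaction of group and library set, called no member and no gene of 6621 (0%), with 413 genes at an unadjusted p under 0.05 and DESeq2 not run. All 9 interaction estimates were negative, from -1.22 (Creld2, SE 0.69, edgeR unadjusted p = 0.0844) to -0.15 (Hyou1), and the smallest adjusted p among them was 0.798. Over all genes 49.9% of the interaction estimates were positive.

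In set 2 Creld2 had a mean of 31.6 ± 11.8 CPM in GFP-positive libraries and 64.4 ± 40.2 CPM in GFP-negative libraries (SD, n = 6 each), with overlapping values. Its log2 fold change was -0.84 (SE 0.45, edgeR adjusted p = 0.817). Calr averaged 387 ± 45.1 CPM in GFP-positive and 506 ± 136 CPM in GFP-negative libraries of set 2, and its fold change was -0.36 (SE 0.21, edgeR adjusted p = 0.836). Sdf2l1 averaged 3.58 ± 3.63 CPM in GFP-positive and 24.1 ± 22.1 CPM in GFP-negative libraries of set 2, the widest gap of the 10 genes in proportion. That difference, -2.13 on log2(CPM + 1), did not pass an exact permutation test (two-sided, p = 0.0801). In set 1 the same gene differed by 1.27 (exact permutation test, two-sided, p = 0.199).

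Markers of host cells were read in the same library sets. In set 2, all 8 tested macrophage markers of 10 were called lower in GFP-positive libraries (median log2 fold change -3.68), among them Lyz2, a lysozyme of phagocytes, at -3.66 (SE 0.62, edgeR adjusted p = 0.0156). Their summed level was 131 to 839 CPM in GFP-positive and 2382 to 6463 CPM in GFP-negative libraries of set 2. Of 7 tested fibroblast markers, 4 were called lower in GFP-positive libraries of set 2 (median -3.003), with sums of 239 to 1536 CPM in GFP-positive and 1710 to 12317 CPM in GFP-negative libraries. In set 1 the 8 macrophage markers were all positive (median 1.64) and none was called, with GFP-positive 3 as the library far above the others, and the 5 tested fibroblast markers were all negative (median -0.26), again with none called. The interaction of group and library set called no marker of either list, with smallest adjusted p-values of 0.498 (macrophage) and 0.652 (fibroblast). Without GFP-positive 3 the set 1 fold change of Hspa5 was 0.04 instead of 0.22, that of Hsp90b1 was -0.20 instead of 0.08 and that of Calr was -0.06 instead of 0.06. The part of these cells in the values of the chaperone genes was not tested.

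Of the other lists, plasma cells, the secretory cells with the heaviest chaperone load, had Mzb1 and Tnfrsf17 at 0 in every library, and their 6 markers summed to 161 to 943 CPM in GFP-positive and 183 to 472 CPM in GFP-negative libraries. Goblet markers summed to 350.2 to 7739 CPM in GFP-positive and 335 to 5671 CPM in GFP-negative libraries, and those of Paneth cells ran from 0 to 4400.4 CPM in GFP-positive and 0 to 1692 CPM in GFP-negative libraries. Over all libraries no marker of these 3 lists was called, and their most expressed tested genes were Sdc1 (log2 fold change 0.58), Spink4 (0.29) and Mptx1 (1.20). Sdc1 was the only 1 of 6 plasma cell genes tested and Mptx1 the only 1 of 5 Paneth genes. T and NK cell markers lacked Cd3e, Cd3g and Nkg7 in every library. No marker of the endothelial, neutrophil, enteroendocrine, pancreatic acinar, T and NK cell or epithelial lists was called over all libraries either, and their most expressed tested genes ran from Ly6g (-0.49) to Trbc1 (0.69), with Flt1 at -0.30, Cela1 at -0.20, Krt19 at -0.06 and Cpe at 0.50. The 1 gene called over all libraries was a fibroblast marker, Fbln1, a matrix protein (-3.17, SE 0.54, edgeR adjusted p = 0.0116).

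Set 2 was also compared with set 1, with GFP group as a covariate. All 9 tested genes had positive estimates, and none passed the adjusted threshold, against 6 of 6621 genes (0.0906%). The log2 difference was 0.44 for Calr (SE 0.17, edgeR unadjusted p = 0.0121, adjusted p = 0.557) and 0.68 for Xbp1 (SE 0.28, unadjusted p = 0.0203, adjusted p = 0.650). It was 0.87 for Hyou1 (SE 0.41, unadjusted p = 0.0417, adjusted p = 0.723), and nearest 0 for Hspa5 (0.04, SE 0.16). Of the 6 genes called, 2 were from the secretory cell lists, both higher in set 2. They were Mptx1 of the Paneth list by 6.60 (SE 1.12, edgeR adjusted p = 0.0185) and Clca1 of the goblet list by 3.87 (SE 0.74, edgeR adjusted p = 0.0488). Mptx1 was the only tested gene of the 5 in the Paneth list, so it does not stand for the list. In set 1, Defa17, Defa24 and Mptx2 were at 0 in all GFP-negative libraries and Mptx2 in all GFP-positive libraries. The estimates of all 7 goblet markers were positive, with 2.86 for Fcgbp and 2.50 for Tff3, neither of them called. The part of these cells in the member values was not tested. This contrast was added after the values in each library set had been seen.

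Within 10 identifiers, the joined one included, the libraries gave a GFP-positive and a GFP-negative value from what may be the same tumour, as differences of log2 CPM. No gene was higher in the same population in all 10. Hspa5 was higher in GFP-positive libraries of 5 identifiers, with differences from -0.73 to 0.77 and a mean of 0.02 ± 0.56 (SD, n = 10). Herpud1 and Hyou1 were higher in 6 of 10, and Xbp1, Dnajb9, Pdia4, Sdf2l1 and Hsp90b1 in 4. Calr and Creld2 were higher in 3 of 10, with means of -0.22 ± 0.39 and -0.51 ± 1.23. Among the 8 identifiers whose libraries all held at least 100000 counts, Calr was higher in GFP-positive libraries of 1 and averaged -0.35 ± 0.31 (SD, n = 8), while Hyou1 was higher in 6 and averaged 0.92 ± 1.302. The joined identifier is not among these 8. For Hyou1, 2 of the 8 differences stood far above the rest, 2.93 for the identifier of GFP-positive 6 and 2.91 for one whose GFP-negative library had 0 counts, and the other 6 ran from -0.30 to 0.89.

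**Figure D3:**
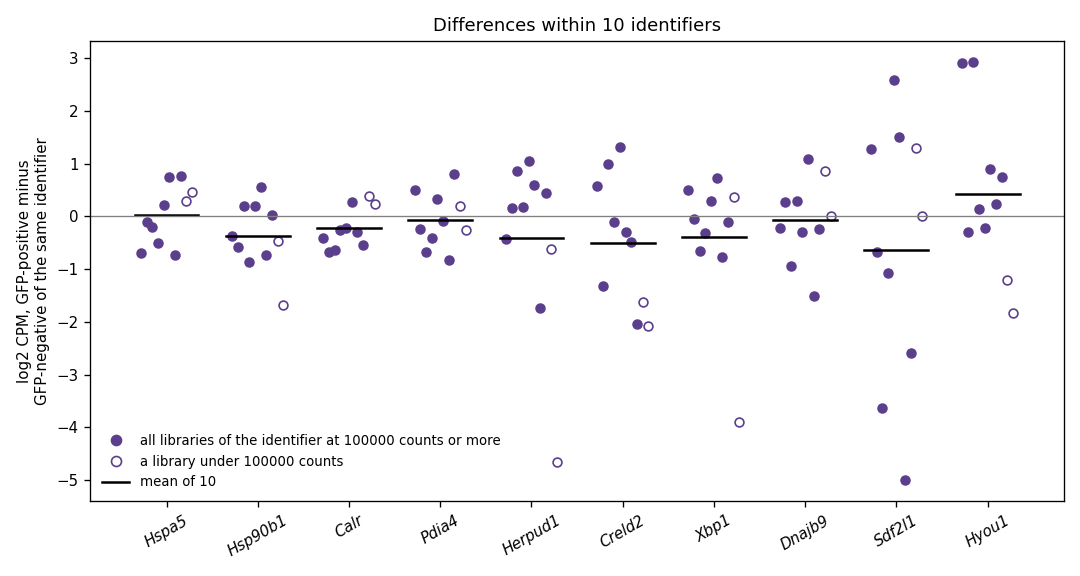
Difference in log2 CPM between the GFP-positive and GFP-negative libraries of the same identifier (vertical axis) for each gene, 1 point per identifier (n = 10), with the mean as a black line and identifiers that include a library under 100000 counts as open points. Points lie on both sides of 0 for every gene, and the spread is smallest for Calr (SD 0.39) and widest for Sdf2l1 (SD 2.47).

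Of the 70 other genes of the pathway, taken by role, 55 were tested over all libraries and 25 were positive, with a median of -0.03, and none was called in either direction. None was called in set 1 (53 tested, 30 positive), in set 2 (56 tested, 23 positive) or in the interaction (55 tested, 20 positive). An unadjusted p under 0.05 was reached by 3 over all libraries (Ero1a, Prdx4 and Ganab), 7 in set 1, 2 in set 2 and 2 in the interaction. Over all genes tested the counts were 318 of 6621, 280 of 5256, 478 of 6952 and 413 of 6621, in the same order.

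Among the sensors and transcription factors, 8 of 12 were tested and their median log2 fold change was -0.04. The most expressed, Atf4, the factor translated when PERK is active, averaged 130.2 ± 57.2 CPM in GFP-positive and 133 ± 57.1 CPM in GFP-negative libraries (log2 fold change -0.04, SE 0.24). Ddit3, which encodes the stress factor CHOP, averaged 62.1 ± 13.4 CPM in GFP-positive and 62.4 ± 32.5 CPM in GFP-negative libraries. Of the targets of PERK and ATF4, 3 of 6 were tested, and the most expressed was Atf3, a stress-induced transcription factor, with 297 ± 199 CPM in GFP-positive and 216 ± 66.7 CPM in GFP-negative libraries (0.34, SE 0.23). Ddit3 was named after its values were seen.

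The disulfide isomerases and oxidases had the lowest median of any role (-0.21, 2 of 8 tested genes positive), while in set 1 5 of 8 were positive (median 0.21) and in set 2 none of 9 was (median -0.40). Pdia3, an isomerase that works with calreticulin, averaged 444 ± 106 CPM in GFP-positive and 489 ± 215 CPM in GFP-negative libraries (-0.10, SE 0.20). Ero1a, the oxidase that recharges the isomerases, had 0 to 70.7 CPM in GFP-positive libraries (median 33.9) and 28.2 to 235 CPM in GFP-negative libraries (median 82.5). The groups overlapped, with the GFP-negative values mostly higher. Its log2 fold change was -1.14 (SE 0.35, edgeR unadjusted p = 0.00216, adjusted p = 0.755), with -1.29 in set 1 and -0.96 in set 2, and it was named after its values were seen.

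The folding cofactors (11 of 11 tested) had a median of -0.01, the lectin cycle (5 of 6) 0.02, degradation (8 of 12) -0.03 and the translocon and signal peptide genes (12 of 12) 0.01. Ppib, a prolyl isomerase of the endoplasmic reticulum, averaged 442 ± 110 CPM in GFP-positive and 417 ± 107 CPM in GFP-negative libraries. Canx, the membrane lectin calnexin and a holder of the ERSE, averaged 252 ± 62.6 CPM in GFP-positive and 188 ± 60.3 CPM in GFP-negative libraries (0.35, SE 0.19, edgeR adjusted p = 0.998). Vcp, the ATPase that extracts proteins for degradation, had a log2 fold change of -0.0037 (SE 0.23), and Sec61g, a subunit of the translocation channel, of -0.27 (SE 0.19).

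Whether the members varied together was examined over the 19 libraries of at least 100000 counts, by correlating every tested gene with Hspa5 on the TMM-normalised log2 CPM scale. These libraries share identifiers, library sets and differences in depth, so they are not fully independent. None of the 8 other members tested was called, against 4 of 6620 genes with a positive correlation at a permutation p adjusted under 0.05 (0.0604%). By Pearson's r the closest member was Hsp90b1 (r = 0.38, rho = 0.41, permutation p = 0.104, adjusted p = 0.477). By Spearman's rho it was Pdia4 (rho = 0.50, permutation p = 0.0310, adjusted p = 0.635; r = 0.30, permutation p = 0.205). The r of Hsp90b1 was 0.38 without the 2 libraries farthest from the median of Hspa5, GFP-positive 3 and GFP-negative 10. It was 0.27 without GFP-positive 3 alone. By library set it was 0.78 in set 1 and 0.19 in set 2, and by group 0.57 in GFP-positive and 0.19 in GFP-negative libraries. The median r of the 8 members was 0.25 in all 19 libraries, beside 0.02 over all genes. Without GFP-positive 3 and GFP-negative 10 it was 0.14, beside 0.09 over all genes. Creld2 (r = -0.03) and Hyou1 (r = -0.12) were the 2 members below 0.

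The genes outside the pathway nearest to Hspa5 were Rnf149 (r = 0.87, permutation test, adjusted p = 0.0331), Gla (0.80, adjusted p = 0.0473), Plod1 (0.80, adjusted p = 0.0515), Efhd2 (0.79, adjusted p = 0.0473) and Cd53 (0.78, adjusted p = 0.0545), so that Plod1 and Cd53 missed the threshold. Gla encodes a lysosomal galactosidase and Cd53 a surface protein of leukocytes. No gene was called once GFP-positive 3 was left out, nor once GFP-negative 10 was left out with it, and macrophage markers summed to 31826 CPM in the first and 6041 CPM in the second. The part of those cells in the list was not tested. Of the pathway genes 0 of 55 were called, with a median r of 0.14.

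Over all 6620 genes the median r with each of the 9 tested members ran from -0.06 (Creld2) to 0.07 (Pdia4). Among all 36 pairs of the 9 members themselves, which share genes and libraries and are not independent, 34 correlations were positive, with a median r of 0.31. These signs are of both library sets pooled, and not all held within a set. Pdia4 and Creld2 had r = 0.79 in set 1 and -0.43 in set 2. For Dnajb9 and Hyou1 r was 0.10 in set 1 and -0.52 in set 2, and for Hyou1 and Calr 0.05 and -0.41. Over the pooled libraries the highest correlation was between Xbp1 and Pdia4 (r = 0.71, rho = 0.76, permutation p = 0.00058), followed by Xbp1 and Calr (r = 0.67, rho = 0.63, permutation p = 0.00161). Pdia4 and Hsp90b1 (r = 0.62) and Calr and Hsp90b1 (r = 0.59) came next, ahead of Xbp1 and Hsp90b1 (r = 0.58, rho = 0.56, permutation p = 0.00883). Adjusted over all 6620 genes correlated with Xbp1, the p-values of its 3 pairs were 0.322, 0.346 and 0.495, and no gene was called with Xbp1 as the anchor (0%). Every member was used as an anchor in turn after the values with Hspa5 were seen.

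Without the 2 libraries farthest from the median of Xbp1, GFP-negative 1 and 3, r was 0.66 for Pdia4, 0.65 for Calr and 0.53 for Hsp90b1. With Pdia4, r was 0.72 in GFP-positive and 0.73 in GFP-negative libraries, and 0.73 in set 1 and 0.76 in set 2. With Calr it was 0.76 in GFP-positive and 0.81 in GFP-negative libraries, and 0.60 in set 1 and 0.53 in set 2. The values held their sign in each of these divisions, which are parts of the same libraries in which these pairs were picked as the highest.

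Because Xbp1 and Pdia4 were picked as the highest pair in these same libraries, the libraries extreme in Xbp1 only restate their relation. GFP-positive 11 had 93.1 CPM of Xbp1 and GFP-positive 8 had 76.8 CPM, beside GFP-negative 9 with 81.0 CPM and GFP-negative 7 with 75.1 CPM. Pdia4 in these 4 libraries was 312 and 335 CPM in the GFP-positive pair and 404 and 394 CPM in the GFP-negative pair, all above the median of either group. Among the 19 libraries the lowest Xbp1 was in GFP-positive 9 (34.98 CPM) and in GFP-negative 1 and 3 (25.9 and 25.4 CPM), where Pdia4 was 167 CPM in the GFP-positive library and 174 and 241 CPM in the GFP-negative ones. Goblet markers summed to 4432 and 7739 CPM in the GFP-positive libraries highest in Xbp1 and 3149 and 5671 CPM in the GFP-negative ones, and to 456 CPM in GFP-positive 9 and 4719 and 343 CPM in GFP-negative 1 and 3. Paneth markers summed to 231 and 3235 CPM in GFP-positive 11 and 8 and to 1692 and 167 CPM in GFP-negative 9 and 7, against 29.2 CPM in GFP-positive 9 and 25.9 and 19.1 CPM in GFP-negative 1 and 3. GFP-positive 7, with the highest Paneth sum (4400 CPM) and a goblet sum of 6537 CPM, had 5.86 log2 CPM of Xbp1 and is not among these libraries. Over all 19 libraries Xbp1 correlated with the log2 goblet sum at r = 0.61 and with the log2 Paneth sum at r = 0.67. For Pdia4 these values were 0.43 and 0.54. The part of goblet and Paneth cells in the relation was not tested.

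**Figure D4:**
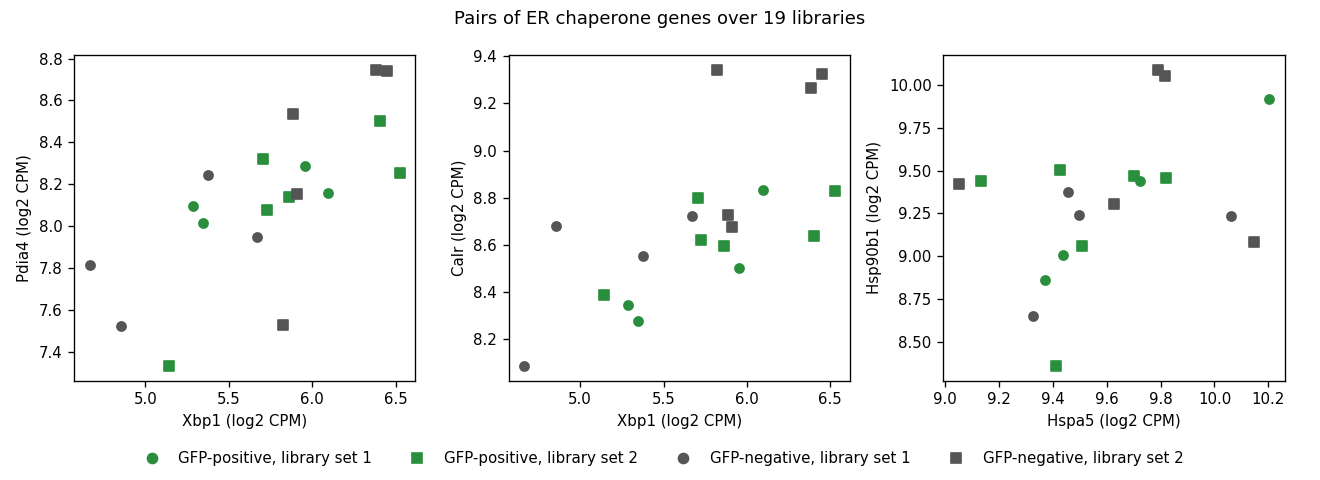
Log2 CPM of 3 pairs of genes over the 19 libraries with at least 100000 counts, 1 point per library, GFP-positive in green and GFP-negative in grey, library set 1 as circles and set 2 as squares. Xbp1 is plotted against Pdia4 (r = 0.71) and Calr (r = 0.67), and Hspa5 against Hsp90b1 (r = 0.38), where the points scatter more widely.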

How the data were processed

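Bulk RNA sequencing of 23 mouse libraries was analysed. The authors deposited 1 table of expected counts, whole numbers per gene, for which the submitters' processing notes name Salmon 1.3.0 and mm10. No source used here gives the annotation or Salmon's settings, and Salmon shares reads between similar transcripts, so paralogues such as the isomerases and HSP70 genes are estimates. Libraries were poly(A)-selected with a directional kit per the labels' protocols. All columns matched a library name.

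Groups came from the GFP status. The 10 genes, the pathway and marker lists and the alternatives were chosen with earlier results of these data known. Named besides the 10 genes were the most expressed tested gene of each pathway role and marker list, and the 5 other genes closest to Hspa5. edgeR 4.0.16 (R 4.3.3; TMM, filterByExpr, robust quasi-likelihood) tested all genes, with an adjusted p under 0.05 as the threshold; DESeq2 1.42.0 was an alternative. Standard errors were taken from the fold change and its F statistic. The scripts were tested on simulated data. Co-variation used log2 CPM with a prior count of 2 and 100000 permutations (scipy 1.17.1). Within-identifier differences used the same log2 scale, with libraries of 1 identifier and group averaged. Coordinates and exon lengths came from GENCODE M21, which held 51485 of 54354 identifiers (94.7%). Merged exon length joins all transcripts of a gene, so CPM per kb understates genes with rarely used exons.

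Replicate numbers shared an identifier in 2 of 11 cases, and deviations of same-numbered libraries correlated above 0.1 in 2 of 11 pairs, so libraries were not paired by number. By identifier 5 of 10 pairs were above 0.1 (median r 0.0997), which does not settle whether they are pairs. Because the labels state no pairing, the main tests were unpaired and the identifier block was run as an alternative. A chi-square test of counts found no repeated library. Reads carry no molecular identifiers, so the limit of 3 counts covers counting error only.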

Additional observations from a re-analysis of the deposited data

How the results depend on the processing

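Under every alternative run, no member passed the adjusted threshold. In the edgeR and DESeq2 fits the smallest adjusted p of a member was 0.360, for Hsp90b1 (-0.45) with the identifier as a block and without GFP-positive 3. In the correlations with Hspa5 it was 0.0682 (permutation test), for Dnajb9 in all 23 libraries. Signs near 0 were not stable. Of 558 member estimates under edgeR or DESeq2 alternatives, 518 kept their sign and 40 did not, 21 of them among the 391 estimates from fits that left out 1 library.

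Over all libraries Hspa5 turned to -0.041 with RLE size factors, -0.050 with DESeq2, -0.058 without libraries under 100000 counts, -0.15 when GFP-positive 3 was left out as well, and -0.092 with the identifier block without GFP-positive 3. Xbp1 turned to -0.0081 with RLE, -0.051 with the identifier block and -0.16 with that block without GFP-positive 3. Herpud1 turned to -0.0028 with RLE, -0.0064 with the identifier block and -0.080 with it without GFP-positive 3. Dnajb9 turned to -0.040 with the identifier block, -0.22 with it without GFP-positive 3, and -0.031 without shallow libraries and GFP-positive 3, and Pdia4 to 0.050 without a filter. In set 1 Calr turned to -0.0012 without shallow libraries. In set 2 Hspa5 turned to 0.030 without a filter, and Herpud1 to 0.11 without a filter and 0.033 without shallow libraries.

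Leaving out 1 library at a time over all libraries, values ran from -0.052 to 0.099 for Hspa5, -0.046 to 0.17 for Xbp1, -0.0060 to 0.24 for Dnajb9 and -0.11 to 0.012 for Pdia4. In set 1 they ran from -0.059 to 0.19 for Calr and -0.20 to 0.33 for Hsp90b1, and in set 2 from -0.20 to 0.0073 for Hspa5 and -0.18 to 0.16 for Herpud1.

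The count of all genes called over all libraries (1) was 24 with DESeq2, 2 with the identifier block, 90 with it without GFP-positive 3, and 0 without shallow libraries and GFP-positive 3. The replicate block called 0. Leaving out 1 library gave 0 to 16, with 16 without GFP-positive 3 and 3 without GFP-positive 1. In set 1 (0 called) DESeq2 called 6 and leaving out 1 library gave 0 to 6, with 6 without GFP-negative 6. In set 2 (89 called) the count was 375 without a filter, 142 with DESeq2, 140 with the identifier block and 65 to 118 without 1 library. No count of members changed. The cause of these shifts was not tested.

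The correlation with Hspa5 turned to -0.018 for Herpud1 with 1 point per identifier, to 0.22 for Creld2 and 0.10 for Hyou1 in all 23 libraries, and to 0.53 and 0.20 with 1 point per identifier. In all 23 libraries 285 of 6620 genes (4.3%), and no member, correlated positively past the threshold, and the median r over all genes was 0.26. Dnajb9 came nearest there (r = 0.57, permutation test, adjusted p = 0.0682). Depth limits Sdf2l1, Hyou1, Dnajb9 and Creld2 most, since several of their values rest on under 10 counts.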
